A study of Mus musculus with 2 samples.

Results

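Nuclear receptors are transcription factors that bind DNA through a pair of zinc fingers and change their activity when a small lipophilic ligand, such as a steroid, retinoic acid, thyroid hormone or a fatty acid, occupies their ligand-binding domain. Many family members are orphans without an agreed ligand, and several of those act in embryonic stem (ES) cells beside Oct3/4 and Sox2. Coactivators of the Ncoa family and corepressors of the Ncor family bind the receptors and recruit enzymes that modify histones. The 38 genes described here were chosen by name alone, as all receptor, Ncoa, Ncor and Nrip1 symbols that a probe of the arrays could be given through its RefSeq accession. They are 33 receptors and 5 coregulators, read by 39 probes, of 10149 genes named in all. Another 20 symbols that match the same name rule, among them Nr3c1, Rxra, Rarb, Esrrg, Ncoa2, Ncoa3 and Nrip1, had no probe named in this way and are not analysed here.

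RNA came from EB5 mouse ES cells, grown without feeders on gelatin and transfected with Klf4 siRNA together with the plasmid pCAGEGFP-IP. The cells were kept for 24 h and then for a further 24 h in puromycin to enrich those that took up the plasmid. Each of the 2 samples (siKlf4 ES cells, n = 2) carried Cy3 and was hybridised on its own two-colour array against Universal Mouse Reference RNA in Cy5, which combines 11 lines of different tissues. Both arrays had the same dye orientation, so a dye effect at a probe cannot be told apart from a difference in RNA. The labels do not say whether the samples were separate cultures, so the spread between them may be technical. All ratios are log2 of ES cells over reference, and since no ES cells without Klf4 siRNA were measured here, no value shows an effect of the siRNA. In RNA from a pool of lines, fewer cells of a type and less RNA per cell cannot be told apart.

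The arrays carried the profile of the labelled cells. Of 12 pluripotency markers measured, 11 exceeded the reference by 2-fold or more, with summed signals of 123683 and 142884 intensity units against 7998 and 10256 in the reference. Of these sums 65110.0 and 65116 units were Dppa5a, saturated in the ES channel. All 8 fibroblast and matrix markers were lower, with sums of 6103 and 7426 against 86766 and 83940. Of 9 macrophage and lymphocyte markers, 8 were lower, with sums of 6552 and 7836 against 69091 and 64804, of which Spp1 made up 60306 and 56066. Trophectoderm markers were higher in 2 of 7 cases and lower in 4, with 1 and 3 past 2-fold. Primitive endoderm markers were higher in 1 of 8 cases and lower in 5, with 1 and 2 past 2-fold. Among all named genes 34.8% were higher and 34.2% lower, with 6.73% and 7.49% past 2-fold. Signals are means above local background, and the channels are not on one scale: the median negative control spot, which carries no mouse sequence, read 129 and 138 units for the ES cells and 28.5 and 32.3 for the reference. The 95th percentile of these controls served as the limit of detection, at 155 and 178 units for the ES cells and 40.9 and 58.4 for the reference. A ratio was counted as higher or lower when limma's adjusted p was under 0.05 and both arrays had the same sign. That threshold was also passed by 115 of 161 negative control spots, with ratios up to 0.52 in size but 0 at 2-fold, so the 2-fold limit carries the weight below.

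The first 30 of the 60 bases of a probe are shown to identify it. They are given for the members furthest from the reference and for a pair of receptors named for ES cells.
Nr0b1 probe: gagtgtggtactaggctaacaagctaattt
Nr2f2 probe: gaaacagaaggaactgtggaatttattggc
Vdr probe: aataaaccaatgaaaaagctttgccgatga
Nr2f1 probe: atttttgatataaccctttgcttcttataa
Esrrb probe: ggtgcgcaggtacaagaaactcaaggtaga
Nr5a2 probe: aatgatatatcagggtatttgtactgcaaa
No probe of the 38 genes shared a run of 20 bases with any other gene probe on the array. The longest run common to a pair of member probes was 11 bases, so paralogues such as Nr2f1 and Nr2f2 had distinct probe sequences. Probes were compared with each other and not with transcripts, so binding to the RNA of a paralogue was not tested.

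One receptor, Nr0b1, stood far above the pool and 3, Nr2f2, Vdr and Nr2f1, stood clearly below it. Those were the 4 of 38 members past 2-fold. The 1 higher member is to be read against 6.73% of the 10137 named genes tested that were at least 2-fold higher, and the 3 lower against 7.49% at least 2-fold lower. Without a limit on size, 9 members counted as higher and 18 as lower, against a background of 34.8% higher and 34.2% lower, and the other 11 missed the threshold. Among the called members, 3 of those higher and 1 of those lower were below the limits in both channels. Beyond the ratio of every negative control spot lay 1 member above, against 15.9% of named genes, and 7 below, against 14.3%. Of those 7, 3 were below the ES limit on both arrays: Nr2f2, Esr1 and Nr1d1. With the ES channel raised to its limit, Esr1 and Nr1d1 stood at -0.22 and -0.25, within the range of the controls. The median log2 ratio of the members was -0.11, against -0.01 for all named genes, and it lay below 0 at each of the other settings tried, from -0.048 to -0.23.

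**Figure D1:**
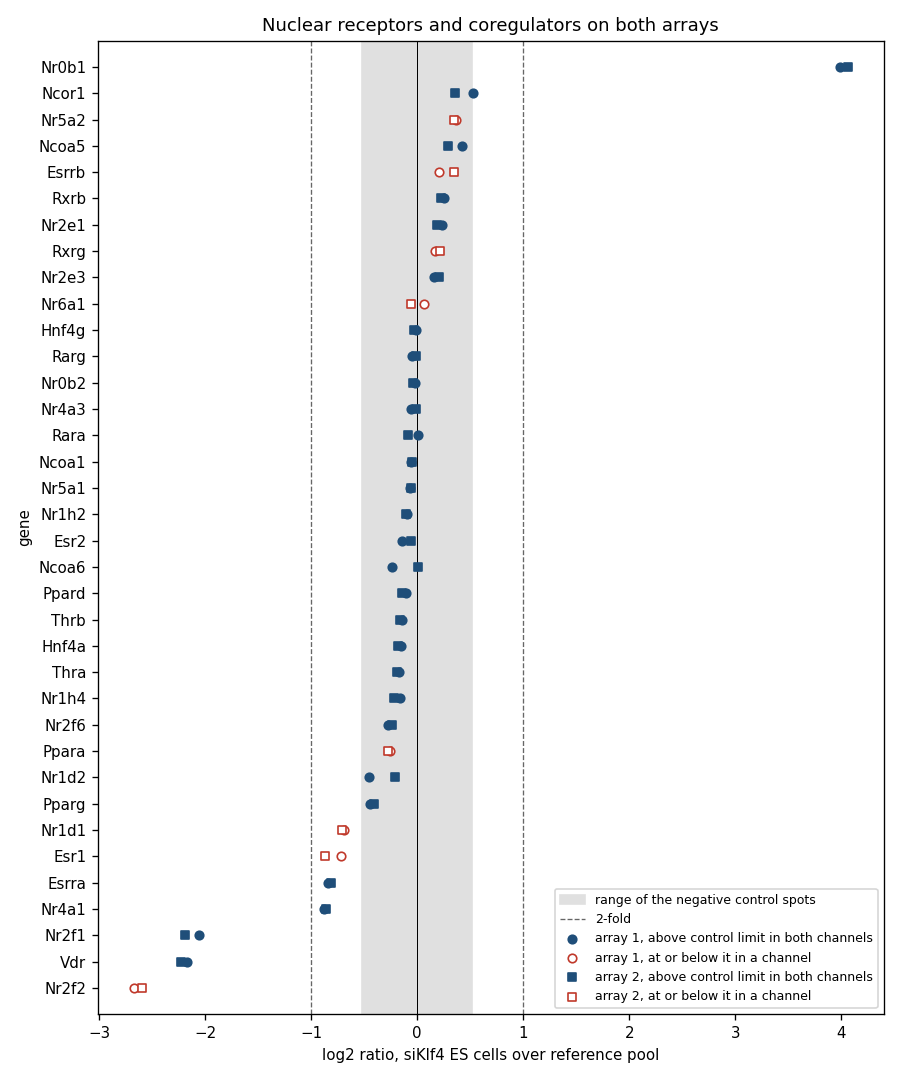
Log2 ratio of siKlf4 ES cells over the reference pool for 36 of the 38 genes, with circles for array 1 and squares for array 2, open where a channel was at or below the negative control limit. The grey band spans the ratios of the negative controls (up to 0.52 in size) and the dashed lines mark 2-fold. Nr0b1 stands alone at 3.99 and 4.07, and Nr2f2, Vdr and Nr2f1 lie below -2 on both arrays.

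**Figure D2:**
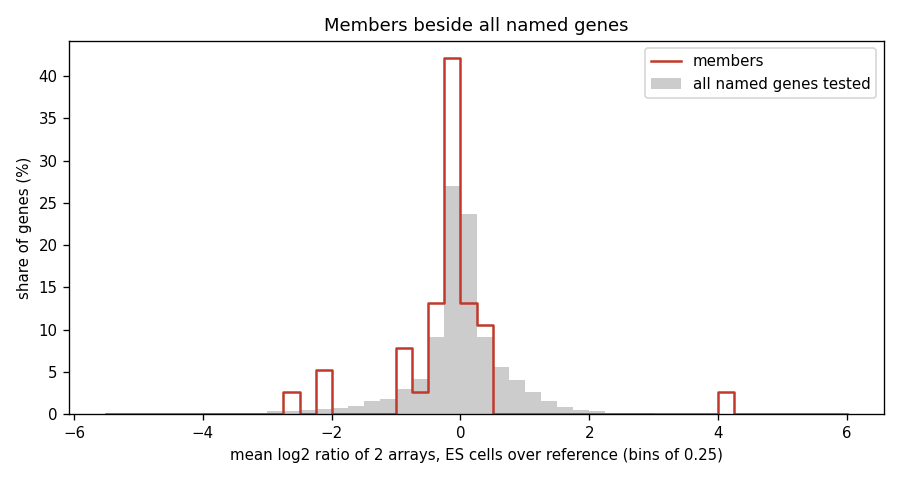
Share of genes in percent by mean log2 ratio, in bins of 0.25, for the 38 members (red line) and all 10137 named genes tested (grey bars). The middle 50% of the members lay between -0.29 and -0.0049, against -0.23 and 0.26 for all named genes.

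Nr0b1 encodes DAX1, a receptor without the usual DNA-binding domain that represses other receptors and is made in ES cells and steroid-producing tissues. Its signal was 3111 and 4426 units in ES cells against 189 and 230.4 in the pool. Both channels thus lay above their limits on both arrays, and the ES signals were many times the limit. The log2 ratios were 3.99 and 4.07, a mean of 4.03 ± 0.052 (SD, n = 2) or 16.3-fold (limma, adjusted p = 4.71e-07). That was the 8th highest ratio of the 10137 named genes. Without background correction the ratio was 2.85.

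The 250 bases before the annotated start of Nr0b1 are shown because it was the one member past 2-fold above the pool, with the receptor half-site AGGTCA, searched on both strands, in capitals (RefSeq, GRCm38.p6, plus strand, chrX:86191525-86191774).
Nr0b1 upstream: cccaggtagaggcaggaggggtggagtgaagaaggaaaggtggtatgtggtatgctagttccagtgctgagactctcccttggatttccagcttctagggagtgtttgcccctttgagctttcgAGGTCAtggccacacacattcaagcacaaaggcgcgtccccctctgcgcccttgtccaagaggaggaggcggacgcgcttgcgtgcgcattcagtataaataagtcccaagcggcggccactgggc
The half-site begins 126 bases before the start. It was found in 10 of 49 upstream windows of members, held by 9 of the 33 members that had a window, and in 14.0% of the 32851 windows of all genes, each the 250 bases before a start. Windows of Nr2f1, Nr2f2 and Vdr did not hold it. The longer form TCAAGGTCA, which contains the half-site, the octamer ATTTGCAT and the CACCC box CCACACCC were in 0 of the 49 windows, and in 0.387%, 1.60% and 3.20% of all windows. A match describes letters in a window and not a bound site.

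Nr0b2 (SHP), the only close relative of Nr0b1 and a repressor of bile acid synthesis in liver, did not share that difference. Its signals were 1146 and 1427 units in ES cells against 1294 and 1406 in the pool, and its log2 ratio was -0.03 ± 0.014 (limma, adjusted p = 0.483). Among the oestrogen-related and steroidogenic-factor orphans, only Esrra and Nr5a1 were above the limits, and they lay below and near the reference. Esrra, a regulator of mitochondrial genes, had 751 and 853 units in the ES channel against 1479.8 and 1425 in the reference. With ratios of -0.84 and -0.82 it was 1.78-fold lower in the ES cells (limma, adjusted p = 1.91e-05). Nr5a1, steroidogenic factor 1 itself, did not pass at -0.06 ± 0.0020.

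Esrrb and Nr5a2, both known as supporters of pluripotency, gave no usable level here. The Esrrb probe read 137 and 139 units in ES cells against 32.9 and 26.4 in the pool, all below the limits. For Nr5a2 the values were 123 and 136 units, and 17.1 and 24.3. Their ratios of 0.27 and 0.36 passed the test, as did those of most negative control spots, and carry no direction. Nr6a1, the germ cell nuclear factor that silences Oct3/4 during differentiation, was above the ES limit on only 1 array, with 166 and 162 units, and its ratios of 0.06 and -0.06 had opposite signs.

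**Figure D3:**
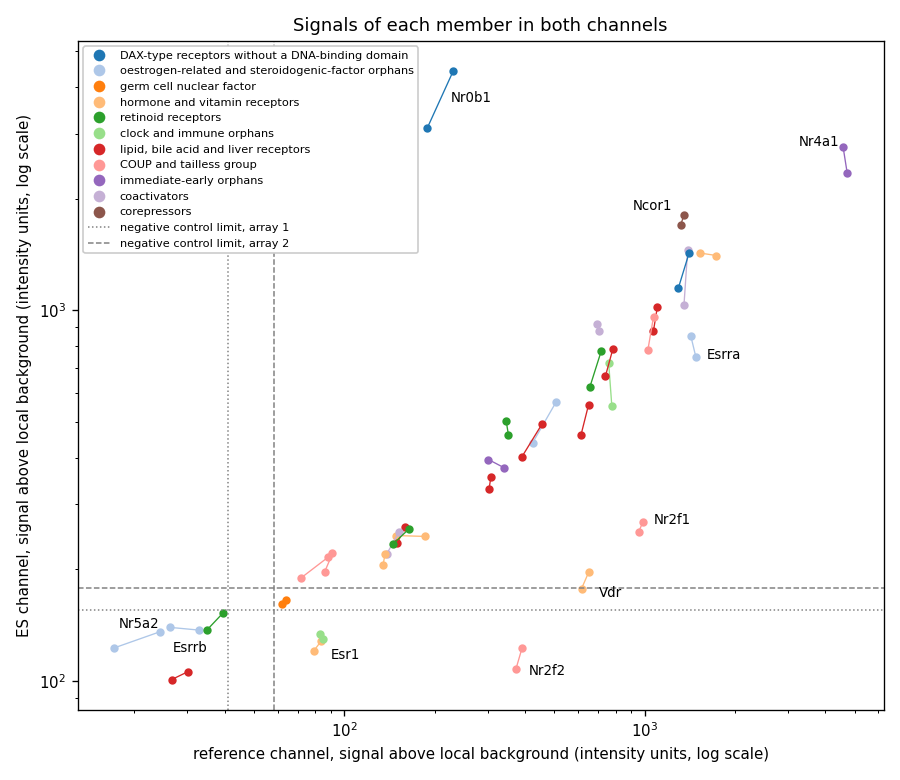
Signal above local background in the reference channel (x axis) and the ES channel (y axis) for 36 of the 38 members, in intensity units on log scales, with a line joining its 2 arrays and colours for the role of the gene. Dotted and dashed lines are the negative control limits of array 1 and array 2. Most members fall along one band, Nr0b1 lies above it, and Nr2f1, Nr2f2 and Vdr lie below it.

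The COUP transcription factors, orphan receptors of mesenchyme, vessels and neural tissue, held 2 of the 3 members lower by 2-fold. Nr2f2 (COUP-TFII) read 108 and 123 units in the ES channel, below the limit on both arrays, against 373 and 391 in the reference. Its measured ratios were -2.68 and -2.60 (mean -2.64 ± 0.057, limma, adjusted p = 8.77e-07). With the ES channel raised to its limit the reference was at least 3.73-fold higher. Nr2f1 (COUP-TFI) was detected in both channels, with 252 and 268 units against 955 and 986. Its ratios of -2.06 and -2.19 (mean -2.12 ± 0.095) put it 4.36-fold below the pool (limma, adjusted p = 2.05e-06).

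The other members of that branch lay close to the reference. Nr2f6 had a ratio of -0.25 ± 0.029, no larger than negative controls showed. Nr2e1 (tailless), a factor of neural stem cells, and Nr2e3, a factor of photoreceptors, stood at 0.21 and 0.18 and were dim in both channels, at 189 to 221 units in the ES cells. The fibroblast and matrix markers given above were lower in the same direction as Nr2f1 and Nr2f2 in 8 of 8 cases, at a median of -3.38. Of them only Lox was below the ES limit on both arrays, and their part in the COUP values was not tested.

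Among receptors for hormones and vitamins, Vdr, the receptor for active vitamin D, was the one past 2-fold. It read 177 and 196 units in ES cells, just above the limits, against 617 and 651 in the pool. The ratios were -2.17 and -2.23, a mean of -2.20 ± 0.040 or 4.59-fold lower (limma, adjusted p = 1.18e-06). Without background correction Vdr stood at -0.96 and Nr2f2 at -0.84, short of 2-fold, while Nr2f1 stayed past it at -1.13. At all of the other settings tried, the 3 genes stayed past 2-fold wherever they were tested.

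The oestrogen and thyroid hormone receptors did not reach 2-fold. Esr1 was below the ES limit on both arrays (128 and 121 units) and reached only 83.5 and 79.3 in the reference, so its ratio of -0.80 becomes a bound of at least 1.16-fold, which sets no upper limit on the difference. Esr2 did not pass at -0.10 ± 0.064 (limma, adjusted p = 0.0789). Thra and Thrb stood at -0.18 and -0.15, and Thrb was bright in both channels, at 1406 and 1428 units in ES cells against 1733 and 1532. The Thra and Thrb ratios passed the test but were smaller than the largest ratio of a negative control.

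The 3 retinoid receptors above the limits, Rara, Rarg and Rxrb, were near the reference. Rarg, the retinoic acid receptor of early embryonic cells, read 619 and 774 units in ES cells against 656 and 716 in the pool, at -0.03 ± 0.026 (limma, adjusted p = 0.506). Rara did not pass either, with opposite signs on the arrays (0.01 and -0.09). Rxrb, a shared dimer partner of many receptors, counted as higher at 0.24 ± 0.015 (limma, adjusted p = 0.00274). Its ratio was smaller than the largest ratio of a negative control and did not pass with median centring in place of loess (0.10). Rxrg was above the limits in neither channel on either array.

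The lipid, bile acid and liver receptors formed a group of 7 with ratios from -0.43 to -0.02, of which 5 counted as lower, 0 as higher and 0 reached 2-fold, beside 34.2% lower and 34.8% higher among all named genes. None of the 7, 1 of them below the limits in both channels, lay beyond the negative controls. Pparg, the regulator of fat cell formation, was lowest at -0.43 ± 0.026 (461 and 557 units against 614 and 651; limma, adjusted p = 0.000267). Nr1h4 (FXR), Hnf4a and Ppard stood at -0.19, -0.17 and -0.13. Hnf4g did not pass at -0.02. Ppara was above the limits in neither channel. Liver markers beside them were mixed, with 2 of 7 higher, Ahsg at 2.10-fold and Trf at 1.46-fold, and 3 lower. Afp, Ttr and Apoa1 were below the ES limit on both arrays.

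Nr1h2 (LXR beta), a sensor of oxysterols, was the one member with a pair of probes, whose first 30 bases differ as follows.
Nr1h2 brighter probe: tgtcttcccccacaagttctctggacactc
Nr1h2 dimmer probe: accattgagatcatgttgctagaaacagcc
The brighter probe read 664 and 785 units in the ES channel against 740.3 and 783 in the reference, at -0.10 ± 0.012. The dimmer one read 210.5 and 218 units against 113 and 107, at 0.03 ± 0.0096. Neither passed (limma, adjusted p = 0.0555 and 0.453), and both placed the gene near the pool.

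Among the orphans of the circadian clock, Nr1d1 (REV-ERB alpha), a clock repressor, was below the ES limit on both arrays at 130.0 and 134 units. The reference read 84.8 and 82.9, so its ratio of -0.70 becomes a bound of at least 1.19-fold. In the RefSeq table Nr1d1 overlaps Thra, Esrra overlaps Trmt112 and Ncor1 overlaps Ttc19. Whether a probe also read the RNA of the overlapping gene was not tested. Nr1d2 (REV-ERB beta) was detected, with ratios of -0.46 and -0.21 (limma, adjusted p = 0.00761), and it differed between arrays by 0.25, more than any other member. Its mean of -0.33 was smaller in size than the largest ratio of a negative control.

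Nr4a1 (NUR77), an orphan receptor induced within minutes by growth factors, was among the brightest member probes in both channels. It read 2351 and 2753 units in the ES cells and 4725 and 4582 in the reference. Its ratios of -0.88 and -0.86 were close together and put it 1.83-fold below the pool (limma, adjusted p = 1.56e-05). Its relative Nr4a3 (NOR1) stood at -0.04 ± 0.035 and did not pass.

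Of the 5 coregulators, 0 reached 2-fold and 0 had a mean ratio beyond that of every negative control spot. Ncor1, the corepressor that links unliganded receptors to histone deacetylase Hdac3, was highest. Its signals were 1701 and 1812 units in ES cells against 1318 and 1354 in the pool, with ratios of 0.53 and 0.36 (mean 0.44 ± 0.12, limma, adjusted p = 0.000969). The coactivator Ncoa5 counted as higher at 0.35 ± 0.093 (limma, adjusted p = 0.00148). Ncoa1 (SRC-1) at -0.05 did not pass, nor did Ncoa6 at -0.12, whose ratios of -0.24 and 0.00 disagreed between arrays. With median centring Ncor1 stood at 0.23 and Ncoa5 no longer passed (0.13).

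**Figure D4:**
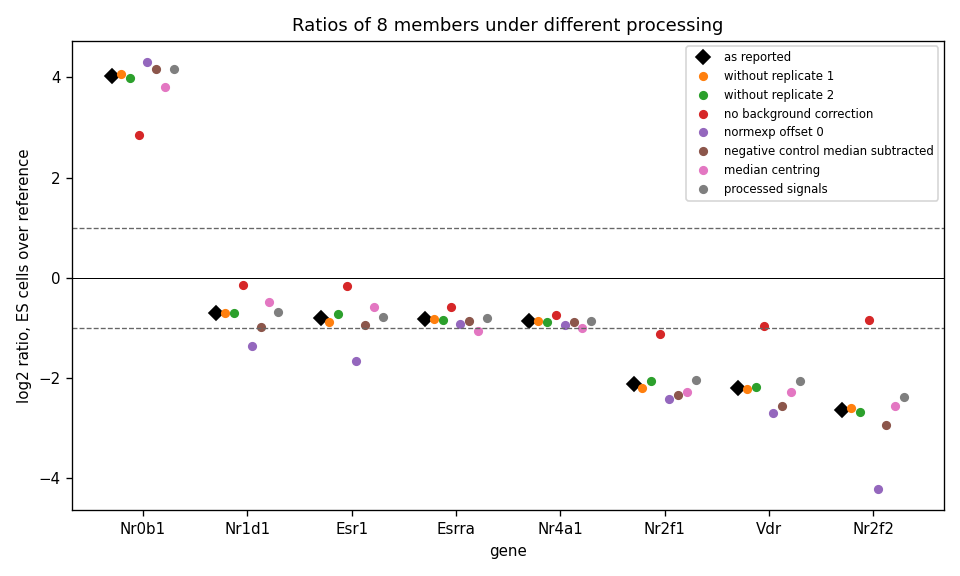
Log2 ratio of ES cells over reference for the 8 members whose measured ratio lay beyond every negative control spot, with dashed lines at 2-fold. Black diamonds are the reported setting and coloured points 7 others. Nr2f2, Esr1 and Nr1d1 were below the ES limit on both arrays. Nr0b1 stays far above 2-fold throughout, and Nr2f2 moves most, from -0.84 without background correction to -4.21 with an offset of 0.

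Replicate agreement was close. The median absolute difference between arrays was 0.039 for the members, against 0.062 for all named genes, and 2 members, Nr1d2 and Ncoa6, differed by more than 0.2. The deposited scanner files also give a p-value per spot from the software's own error model. It was under 0.01 on both arrays for 6 members: Nr0b1, Nr2f1, Nr2f2, Vdr, Nr4a1 and Esrra. That is 15.8% of the members, against 20.5% of all named genes. Of the 38 members, 29 were above the limits in both channels on both arrays, 4 were below in the ES channel only, 4 were below in both and 1 was mixed.

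Around the receptors, genes that make or carry their ligands are given beside the same shares of all named genes. Those were 34.8% higher and 34.2% lower, with 6.73% and 7.49% past 2-fold. In retinoid metabolism and binding, 2 of 14 measured genes were higher and 7 lower, with 0 and 3 past 2-fold and a median of -0.30. The retinoic acid carrier Crabp1 stood at -2.18 ± 0.0055, the carrier Fabp5 at -2.31 and the retinaldehyde dehydrogenase Aldh1a1 at -1.97, while Dhrs3, which turns retinal back to retinol, was 1.84-fold lower. Cyp26a1, which degrades retinoic acid, was below the limits in both channels. For steroid synthesis and conversion, 7 of 23 genes were higher and 10 lower, with 0 and 2 past 2-fold. Those were Tspo, a mitochondrial membrane protein, at -3.15 and Por, the electron donor of cytochromes P450, at -1.21. The dehydrogenases Hsd17b4 (0.76) and Hsd11b1 (-0.50), the latter an activator of glucocorticoids, followed.

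Genes that are known targets of the receptors lay on both sides of the pool, but in each target list more were lower than higher. The medians of these lists ran from -0.61 for oestrogen receptor targets to -0.13 for PPAR targets. Among all named genes, 34.8% were higher and 34.2% lower, and 6.73% and 7.49% were past 2-fold. Of 12 retinoic acid targets, 2 were higher and 8 lower, with 1 and 2 past 2-fold. Stra8, the gene of meiotic entry, was 5.60-fold higher, and the homeobox gene Meis1 was 3.02-fold lower, with Meis2 just short of 2-fold. Egr1, at -5.32, is an immediate-early gene that also answers many other signals. Of 15 LXR and sterol targets, 3 were higher and 8 lower, with 2 in each direction past 2-fold. Apoe, a carrier of cholesterol, was 13.7-fold higher and its neighbour Apoc1 2.85-fold higher, whereas Lpl (-2.49) and Npc2 (-1.21) were lower.

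PPAR targets split in the same way, with 8 of 23 higher and 12 lower, and 2 and 5 past 2-fold. Fabp3, a fatty acid carrier, was 9.13-fold higher and Slc25a20, the mitochondrial carnitine carrier, 2.92-fold higher. Lpl was again low, and Fabp4, which marks fat cells and macrophages, was below the ES limit on both arrays, so the reference was at least 1.76-fold higher. Of 18 glucocorticoid receptor targets, 6 were higher and 10 lower, with 4 and 5 past 2-fold. Klf9 was 3.24-fold higher and Cebpd, Errfi1 and Nfkbia stood at -3.87, -2.17 and -1.71, beside the caveolar gene Cavin2 at -4.68. Oestrogen receptor targets were lower in 9 of 12 cases and higher in 1, with 5 and 0 past 2-fold and a median of -0.61, against 34.2% lower and 7.49% past 2-fold below among all named genes, and with Rara itself among the 12. They were led by the chemokine Cxcl12 (-3.66), Igfbp4 (-2.60), Areg (-2.06) and the cyclin Ccnd1 (-1.21). Many of these targets are also genes of fibroblasts or macrophages, whose markers had medians of -3.38 and -2.13, and the part of those cells was not tested.

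Counts for the partners of the receptors inside the cell are set beside 34.8% of all named genes higher and 34.2% lower, with 6.73% and 7.49% past 2-fold. Chaperones that hold steroid receptors ready for ligand were higher in 14 of 18 cases and lower in 2, with 6 past 2-fold above and 0 below, at a median of 0.64. Hsp90aa1, the inducible Hsp90, was saturated in the ES channel on both arrays and so at least 3.28-fold higher. The cyclophilin Ppid stood at 1.39 and the immunophilin Fkbp5 at 1.39, and Hspa8 at 1.25 on array 1, being saturated in the ES channel on array 2. Of 20 corepressor and histone deacetylase partners, 13 were higher and 4 lower, with 3 and 0 past 2-fold. Trim28 (1.52), Hdac1 (1.19) and Sin3a (1.00) were highest and Ctbp1 (-0.74) lowest, and Hdac3 did not pass at 0.02. Sap18 was saturated in both channels and has no fold.

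Among 34 coactivator and Mediator partners, 17 were higher and 7 lower, with 3 and 1 past 2-fold. The Mediator subunit Med17 stood at 1.22, the proteasome ATPase Psmc5 at 1.10 and Trim24 at 1.00, while the arginine methyltransferase Prmt2 stood at -1.57. Of 16 other factors that bind receptors, 7 were higher and 5 lower, with 0 and 1 past 2-fold. Fhl2, a LIM protein of muscle, stood at -2.77, and Phb2 (0.97), Aff1 (0.85) and Ccar1 (0.73) followed.

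**Figure D5:**
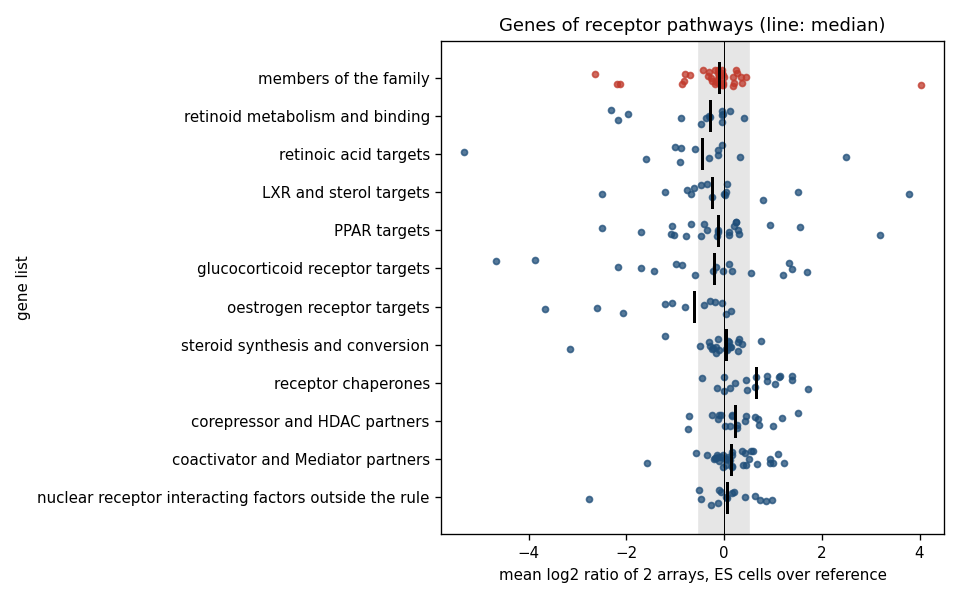
Mean log2 ratio of each measured gene in 11 lists of receptor pathways and, in red at the top, of the 38 members, with a black line at each median and a grey band for the negative controls. The receptor chaperones have the highest median, 0.64, and the oestrogen receptor targets the lowest, -0.61.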

How the data were processed

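Per the file headers, Agilent Feature Extraction A.7.5.1 wrote the deposited intensity values, which are unprocessed spot means, local background medians and signals processed by background subtraction and LOWESS. The deposited log10 ratios are red over green processed signal, and each deposited p-value is the software's own. The deposited series table holds log10 values that, in 99.6% of probes on either array, equal the mean log10 red signal minus the log10 ratio within 0.0002.

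Mean signals were corrected with limma 3.58.1 (R 4.3.3) by normexp with an offset of 50 and then by loess on each array, giving controls weight 0. Leaving out 24 outlier probes kept 21028, tested against 0 with lmFit and eBayes and Benjamini-Hochberg adjustment over all probes. RefSeq accessions named 10422 probes, and the brightest probe stood for a gene. Where 1 channel stayed below its negative control limit throughout, the fold was computed at the limit and is a bound. Other settings were no background correction, an offset of 0, negative control background, median centring, processed signals, a filter on dim probes, outlier spots kept, mean of probes and leaving out either array. The fit was tested on simulated data whose unchanged probes were centred on 0. Most negative control spots passed the threshold on the real arrays, so the simulation gives no rate of false calls for them. The number of arrays limits the precision. Members were described by role, a few of them counted in all totals but not reported here by name, and up to 4 genes of each list that passed were named, those with the largest ratio first. Further genes (Cyp26a1, Klf9, Hdac3, Sap18, Afp, Ttr, Apoa1, Ahsg, Trf, Lox) were chosen after their values were seen. Members and lists were chosen with earlier results of these data known.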

Additional observations from a re-analysis of the deposited data

How the results depend on the processing

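The count of 1 member at least 2-fold higher became 2 with a normexp offset of 0, where Nr5a2, below the limits in both channels, was added, and stayed at 1 at the other settings. The count of 3 lower became 1 without background correction and 6 with an offset of 0, and ran from 2 to 4 otherwise. The 2 came from leaving out probes not above the negative controls, which left 29 members. Without background correction 3.35% of all named genes were at least 2-fold higher and 3.35% lower. The shares were 8.20% and 10.0% with an offset of 0 and 5.18% and 8.44% with median centring, against 6.73% and 7.49% as reported. They were 7.32% and 8.59% with the negative control median subtracted, and 7.10% and 7.19% in the processed signals. After the filter on dim probes they were 7.62% and 7.23%. An offset of 0 also put 6 negative control spots past 2-fold. The median of the members was -0.048 without background correction, -0.14 with an offset of 0, -0.23 with median centring, -0.091 in the software's processed signals and -0.12 with the negative control median subtracted, a setting chosen after seeing the data. Without either replicate it ran from -0.11 to -0.10, the counts past 2-fold were the same, and these are values without a test. Median centring brought 7 members past the p threshold and took 5 out, with no change of sign among those that passed in either. Ppara, above the limits in neither channel, stood at 0.049 with the negative control median subtracted, where all its signals were at the floor, so the sign is no measured change. Taking background from the negative controls before normexp changed no call among the members, since normexp fits its own offset. Without background correction, most lists held fewer genes past 2-fold. PPAR targets had 1 higher and 1 lower, glucocorticoid receptor targets 1 higher and 4 lower, oestrogen receptor targets 2 lower and steroid synthesis 1 lower. Receptor chaperones had 4 higher, corepressor partners 2 higher and retinoid metabolism 2 lower. Coactivator partners had 1 higher, as they did with median centring. With an offset of 0, retinoid metabolism and retinoic acid targets each had 5 lower, LXR and sterol targets 4 lower and coactivator partners 5 higher. With the negative control median subtracted, retinoic acid targets had 4 lower. In the processed signals, other receptor-binding factors had 1 higher. No paired analysis was possible because there is 1 group of samples. Causes of these changes were not tested.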
